A study of Mus musculus with 8 samples.

Results

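The 8 genes described here are the Id genes Id1, Id2, Id3 and Id4, the inhibitory Smad gene Smad6, the receptor-activated Smad genes Smad1 and Smad5, and the ligand gene Bmp4. They were chosen by name as genes of bone morphogenetic protein (BMP) signalling and its feedback, with earlier results of these data known. All 8 had a row among the 23284 genes of the deposited expression table. The cells were P19, an embryonal carcinoma line of the mouse, transfected with control siRNA in one arm and with siRNA targeting Upf3a, a factor of nonsense-mediated mRNA decay, in the other. Actinomycin D, which blocks transcription, was added 24 h after transfection, and RNA was taken 0, 15, 105 and 225 min later, so that every group, the 0 min groups apart, had been exposed to the drug. The question the design addresses is how Upf3a depletion alters mRNA levels and mRNA decay. The 2 arms and 4 times give 8 conditions. The labels list 2 cultures for each condition, while the table holds a single FPKM with a lower and an upper limit per gene and condition. FPKM counts sequenced fragments per kilobase of a transcript and divides by the number sequenced in all. No source used here gives the level of those limits, or says whether a single siRNA or a pool was used.

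Upf3a itself was 14.1 ± 0.597 FPKM with control siRNA and 4.68 ± 0.467 FPKM in the knockdown (SD over times, n = 4), or 33.1% of control, and the authors' limits of the arms were apart at 4 of 4 times. Its paralog Upf3b was at 79.6% of control. FPKM totals ran from 537350 to 923333 per condition, and read depth is unknown. Pou5f1, the defining pluripotency factor of these cells, was at 1908 FPKM with control siRNA and 2120 FPKM in the knockdown, averaged over the times. Of 10 embryonal carcinoma markers 8 were tested, 5 were higher in the knockdown (Pou5f1, Nanog, Utf1, Lin28a and Tdgf1) and 0 lower. The 5 make 62.5%, where the background shares were 26.1% for higher and 22.3% for lower. Zfp42 and Fut4, with means of 0.93 and 0.49 FPKM, were not tested. Both were below control at each of the 4 times, with mean FPKM at 51.3% and 84.65% of control. The summed level of the 10 markers was 1951 to 3316 FPKM in control and 2352 to 4037 FPKM in knockdown conditions. For fibroblast and smooth muscle markers, 5 of 8 were tested, Tagln was higher and Col1a2 lower, none of the 8 stayed under 0.5 FPKM in every condition, and the sums were 22.5 to 40.3 and 23.2 to 41.8 FPKM. For neural markers, 3 of 8 were tested and Tubb3 was lower, Pax6 stayed under 0.5 FPKM, and the sums were 55.8 to 78.2 and 53.0 to 69.6 FPKM. For endoderm markers, 2 of 7 were tested and neither was called, Sox17, Sox7 and Afp stayed under 0.5 FPKM, and the sums were 3.87 to 6.56 and 3.21 to 6.36 FPKM. The part of these marker levels in the results below was not tested.

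BMP ligands such as Bmp4 bind serine/threonine kinase receptors, which phosphorylate Smad1 and Smad5. These join Smad4, enter the nucleus and bind GC-rich and GTCT-type elements, and the Id genes and Smad6 are among the best known direct targets. Id proteins have a helix-loop-helix domain but no DNA-binding region. They bind E proteins and keep them from pairing with tissue-specific bHLH factors, and through this BMP signalling helps to hold pluripotent mouse cells undifferentiated. Smad6 acts against the receptors and receptor-activated Smads and so closes a negative feedback loop. Id mRNAs are known to be short-lived.

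On the mm10 build the table places Id1 at chr2:152736274-152737410 (plus strand in GENCODE), Id2 at chr12:25093799-25096092 (minus), Id3 at chr4:136143822-136145392 (plus), Id4 at chr13:48261427-48264036 (plus), Smad6 at chr9:63953076-64022059 (minus), Smad1 at chr8:79338398-79399468 (minus), Smad5 at chr13:56703010-56742378 (plus) and Bmp4 at chr14:46379524-46390599 (minus). The locus of Bmp4 is shared in the table with Gm15217, which lies on the other strand, and exons of Id4 overlap the opposite-strand genes A330033J07Rik and Gm49291. Exons of Smad5 overlap Gm27301 on the same strand. No source used here says whether the counting used strand, so reads of Id4, Bmp4 and Smad5 and those of their overlapping genes may not be told apart.

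RefSeq promoter windows (build GRCm38.p6, 250 bases before to 50 after the start) were found for 7 of the 8 genes, all but Id1. They number 9, since Smad5 has 3. Those of Id2, Id4 and Smad6, whose mRNAs were lower in the knockdown arm, are shown with that of Id3, whose mRNA was not called, each 5′ to 3′ on the gene's strand. Capitals mark GGCGCC, a GC-rich Smad element, and GTCTAGAC, the palindromic Smad binding element. The Id2 window is chr12:25096043-25096342, that of Id4 chr13:48260866-48261165, that of Smad6 chr9:64022010-64022309 and that of Id3 chr4:136143572-136143871.
Id2: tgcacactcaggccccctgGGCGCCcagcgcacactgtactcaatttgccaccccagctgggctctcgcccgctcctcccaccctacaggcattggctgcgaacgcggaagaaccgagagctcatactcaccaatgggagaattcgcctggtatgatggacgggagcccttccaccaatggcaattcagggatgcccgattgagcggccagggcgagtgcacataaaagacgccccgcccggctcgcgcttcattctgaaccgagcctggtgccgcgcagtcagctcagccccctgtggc
Id4: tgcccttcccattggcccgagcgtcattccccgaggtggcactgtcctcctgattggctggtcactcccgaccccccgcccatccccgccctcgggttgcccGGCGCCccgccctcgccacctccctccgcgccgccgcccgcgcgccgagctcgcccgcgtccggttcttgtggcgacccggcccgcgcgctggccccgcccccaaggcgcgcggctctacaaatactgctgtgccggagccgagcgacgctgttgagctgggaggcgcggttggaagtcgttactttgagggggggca
Smad6: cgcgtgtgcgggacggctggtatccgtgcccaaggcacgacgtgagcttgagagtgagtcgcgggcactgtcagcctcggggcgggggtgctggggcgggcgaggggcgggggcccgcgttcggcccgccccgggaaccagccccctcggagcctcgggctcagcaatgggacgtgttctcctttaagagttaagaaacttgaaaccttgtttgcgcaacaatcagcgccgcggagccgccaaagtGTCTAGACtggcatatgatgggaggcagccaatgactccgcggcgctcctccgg
Id3: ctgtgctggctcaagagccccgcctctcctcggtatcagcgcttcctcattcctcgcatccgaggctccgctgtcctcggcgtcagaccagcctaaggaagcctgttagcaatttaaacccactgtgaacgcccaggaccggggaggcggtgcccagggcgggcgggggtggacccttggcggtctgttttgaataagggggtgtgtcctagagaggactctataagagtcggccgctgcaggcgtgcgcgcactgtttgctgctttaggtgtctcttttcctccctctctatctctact
On either strand, GGCGCC stood in the windows of Id2 and Id4 and in 2 of the 3 Smad5 windows, and in 11.9% of all 32544 RefSeq windows. Those 2 Smad5 windows overlap and share the same single site. GTCTAGAC stood in the window of Smad6 alone among the 9, and in 0.215% of all windows. The shorter Smad motif CAGACA was in none of the 9 (20.9% of all windows), and TATAAA (13.6%) and the cyclic AMP element TGACGTCA (1.8%) were in none either. The GC box GGGCGG was in each of the 9 windows, against 35.9% of all windows. CCAAT (37.4% of all windows) occurred 3 times in the Id2 window and 2 times in that of Id4. It occurred 1 time each in the windows of Smad6 and Smad1 and in the 2 overlapping Smad5 windows. The E-box CANNTG (72.3%) was present in windows of Smad6, Id2, Smad5 and Bmp4. GC content of the 9 windows was 60% to 73.3%, against a median of 53% over all windows. A letter match is a description of the window and not a binding site.

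The 3′ UTRs are shown next as a description of the transcripts. The motif TATTTAT, the core of AU-rich elements that recruit decay factors, was in the 3′ UTR of 5 of the 8 genes in GENCODE vM21. Each site is shown on the transcript strand with 9 bases on either side and the motif in capitals. The sites of Id2 are at chr12:25094357-25094381 and chr12:25094108-25094132, that of Smad6 is at chr9:63953322-63953346, that of Id4 is at chr13:48264832-48264856, that of Smad5 is at chr13:56739087-56739111, and those of Bmp4 are at chr14:46383617-46383641 and chr14:46383559-46383583.
Id2 first site: tgataccgtTATTTATgagagactt
Id2 second site: ctgtgtataTATTTATatataaata
Id4: aaagtcaaaTATTTATggggatctg
Smad6: caacgtaatTATTTATatatggtgc
Smad5: ctgtgccatTATTTATtgcctttca
Bmp4 first site: ccttgacctTATTTATgactttacg
Bmp4 second site: tgacaaataTATTTATaactacata
TATTTAT stood in the 3′ UTR of 28.7% of 10017 tested genes. Among tested genes with a 3′ UTR within 20% of the same length, the share was 20.3% for Id2, 14.3% for Smad6, 9.35% for Bmp4, 53.2% for Id4 and 64.1% for Smad5. The Id4 site lies past the end of the locus that the table gives for Id4. Id1, Id3 and Smad1 had 0 copies of TATTTAT and also 0 of the shorter ATTTA, which 67.5% of tested genes had. Their slopes after transcription block, given below in log2 units per hour, were -0.55, -0.51 and -0.66. Those of the 5 genes with TATTTAT were -0.70 (Id2), -0.42 (Smad6), -0.37 (Id4), -0.29 (Smad5) and -0.29 (Bmp4). These slopes rest on the pseudocount of 1, which flattens those of less abundant genes. At a pseudocount of 0.1 they were -0.57 (Id1), -0.52 (Id3) and -0.81 (Smad1) without the motif. With the motif they were then -0.78 (Id2), -0.63 (Smad6), -0.53 (Id4), -0.31 (Smad5) and -0.51 (Bmp4). A link between motif and slope was not tested.

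In control cells before actinomycin D (0 min), levels per length ranked Id3 first at 71.3 FPKM (authors' limits 50.2 to 92.5) and Id1 next at 68.65 FPKM (48.0 to 89.3). Id2 was at 35.5 FPKM (24.0 to 47.0), Smad5 at 18.98 FPKM (13.8 to 24.1) and Smad1 at 11.5 FPKM (7.88 to 15.2). Id4 was at 4.95 FPKM (2.90 to 7.005), Smad6 at 3.91 FPKM (2.38 to 5.45) and Bmp4 at 1.80 FPKM (0.997 to 2.60). The order therefore holds 3 tiers whose limits do not overlap between neighbours: Id3 with Id1, then Id2 with Smad5 and Smad1, then Id4 with Smad6 and Bmp4. Within a tier, neighbours in the order overlapped in their limits, but genes further apart need not: the limits of Id2 and Smad1 were apart, as were those of Id4 and Bmp4.

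The clearest difference between the arms was in Id2. Id2 was at 35.5, 33.2, 13.5 and 4.65 FPKM at 0, 15, 105 and 225 min in the control arm, and at 15.8, 16.3, 6.47 and 2.20 FPKM in the knockdown arm. Every knockdown value was below its control, at 44.4%, 49.0%, 48.1% and 47.3% in the order of times, so the share stayed between 44.4% and 49.0% while the mRNA decayed. The authors' limits of the arms were apart at 0 and 15 min, the times of highest level, and overlapped at 105 and 225 min. The mean over times was 21.7 ± 15.1 FPKM in control cells and 10.2 ± 6.97 FPKM in the knockdown (SD, n = 4 times). On the log2(FPKM + 1) scale the difference was -0.97 (SE 0.055, limma adjusted p = 5.6e-05), and 0.271% of the 11452 genes tested had a lower estimate. This p-value and those below measure disagreement between times, not between cultures. A culture difference shared by a whole arm cannot be told apart from the knockdown. In bulk RNA, fewer cells with an mRNA and less of it per cell cannot be told apart.

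Id1, the Id gene most used as a readout of BMP signalling, was lower by a smaller fraction. Its levels were 68.65, 86.9, 18.65 and 21.8 FPKM in control cells and 51.9, 65.85, 14.9 and 14.15 FPKM in the knockdown arm. The knockdown value was the lower at each time, at 75.6%, 75.8%, 79.9% and 64.9% of control, although the authors' limits overlapped at every time. The difference was -0.42 (SE 0.055, adjusted p = 8.7e-04).

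Id4, the least abundant of the Id genes here, was at 4.95, 5.502, 2.25 and 1.58 FPKM in control cells and 3.00, 3.29, 1.58 and 0.621 FPKM in the knockdown arm. It was lower at each time, at 60.7%, 59.8%, 70.0% and 39.3% of control, with overlapping limits. The difference was -0.54 (SE 0.061, adjusted p = 4.6e-04). At such levels the added 1 shrinks a fold, so that the mean FPKM stood at 59.4% of control, and with a pseudocount of 5 the difference was -0.26 and again called.

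Id3, ranked first of the 4 in control cells at 0 min, did not pass the test. It was at 71.3, 70.0, 29.45 and 19.1 FPKM in control cells and 63.2, 71.5, 26.8 and 19.45 FPKM in the knockdown arm. The knockdown value was below the control at 0 and 105 min and above it at 15 and 225 min, between 88.6% and 102% of control. The difference was -0.06 (SE 0.051, adjusted p = 0.35).

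Smad6, the feedback inhibitor, was lower in the knockdown at each time. It was at 3.91, 5.48, 1.36 and 1.08 FPKM in control cells and at 2.85, 3.70, 0.897 and 0.517 FPKM in the knockdown arm. These are 73.0% (0 min), 67.6% (15 min), 65.7% (105 min) and 48.1% (225 min) of control, the authors' limits overlapped at each time, and the difference was -0.40 (SE 0.045, adjusted p = 5.1e-04). At these low levels its size rests on the pseudocount, with -0.62 at 0.1 and -0.17 at 5, and the call held at both. Smad7, the other inhibitory Smad, was at 88.3% of control on average and was not called.

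The receptor-activated Smads stood close to control. Smad1 was at 11.5, 10.6, 2.68 and 1.48 FPKM in control cells and at 11.8, 11.4, 3.16 and 1.48 FPKM in the knockdown arm, which is above the control at 3 times and 99.8% of it at 225 min. Its difference of 0.08 (SE 0.046, adjusted p = 0.20) did not pass the test. Smad5 was at 18.98, 17.5, 13.5 and 8.59 FPKM in control cells and at 17.5, 15.5, 12.2 and 7.02 FPKM in the knockdown arm. It was slightly lower at each time, at 92.0%, 88.9%, 90.7% and 81.7% of control, with wide overlap of the limits. The Smad5 difference of -0.17 (SE 0.044) passed at an adjusted p of 0.018, but not when the ribosomal protein genes set the scale (-0.08 with an adjusted p of 0.31) or when the 15 min pair was left out (-0.17 with an adjusted p of 0.061).

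Bmp4, the ligand gene, was near the lower end of what the table resolves. It was at 1.80, 2.40, 1.10 and 0.449 FPKM in control cells and at 2.11, 1.90, 0.719 and 0.570 FPKM in the knockdown arm. The knockdown value was above the control at 0 and 225 min and below it at 15 and 105 min, from 65.6% to 127% of control, and the difference of -0.06 (SE 0.083, adjusted p = 0.56) did not pass the test. Its SD of the log2 ratio over the 4 times, 0.23, was the widest of the 8 genes.

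**Figure D1:**
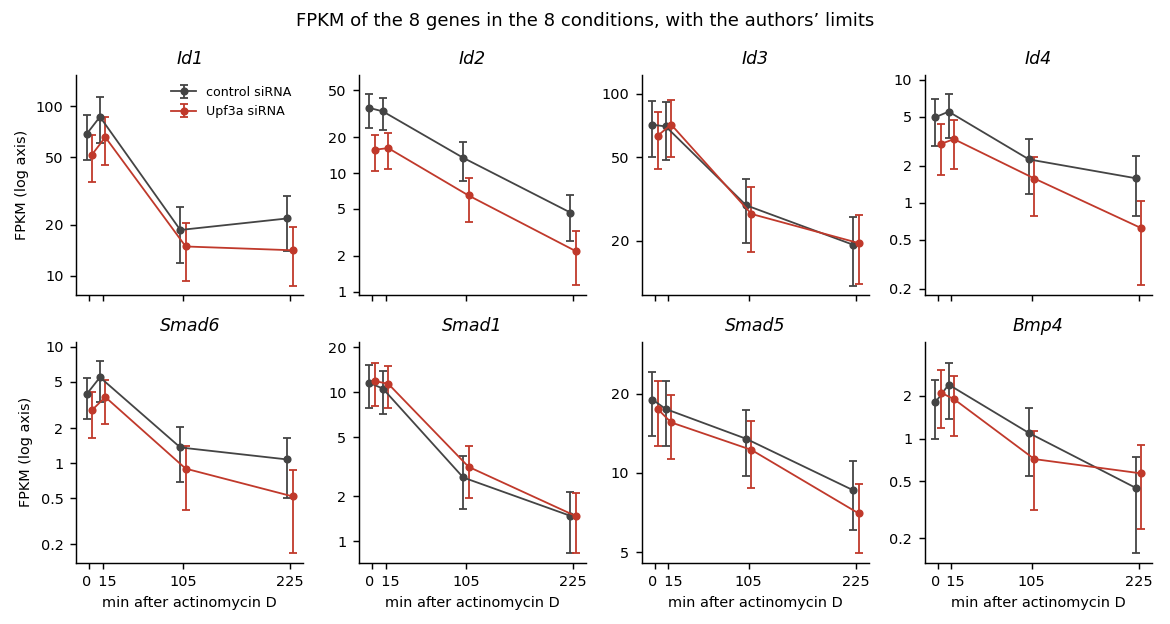
FPKM on a log axis against minutes after actinomycin D for each of the 8 genes, control siRNA in dark grey and Upf3a siRNA in red, with bars for the authors' limits and points shifted slightly sideways. The red line of Id2 runs below the grey one at all 4 times with bars apart at 0 and 15 min, while the lines of Id3 and Bmp4 cross.

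In all, 5 of the 8 genes were called lower in the knockdown (Id1, Id2, Id4, Smad6 and Smad5), 0 higher, and Id3, Smad1 and Bmp4 were not called. Over all genes tested, 22.3% were called lower and 26.1% higher. The same 5 genes were below control at each of the 4 times, as were 28.6% of all genes tested. The authors' limits were apart with the knockdown lower at 1 or more times for Id2 alone among the 8, and for 0.908% of all genes tested. At 3 or more times they were apart for 0 of the 8 and for 0.183% of all genes. The median difference of the 8 genes was -0.28, against 0.00 over all genes tested (0.00461 before rounding). Of all genes tested, 20.02% had a lower estimate than Smad5, against 1.73% for Id4, 3.44% for Id1 and 4.19% for Smad6. Scaled to the 82 ribosomal protein genes, 4 of the 8 were lower and the median was -0.20, and without the 15 min pair 4 were lower and the median was -0.27. Ribosomal protein scaling also moved the balance of all calls from 2986 higher and 2557 lower to 3868 higher and 1283 lower.

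**Figure D2:**
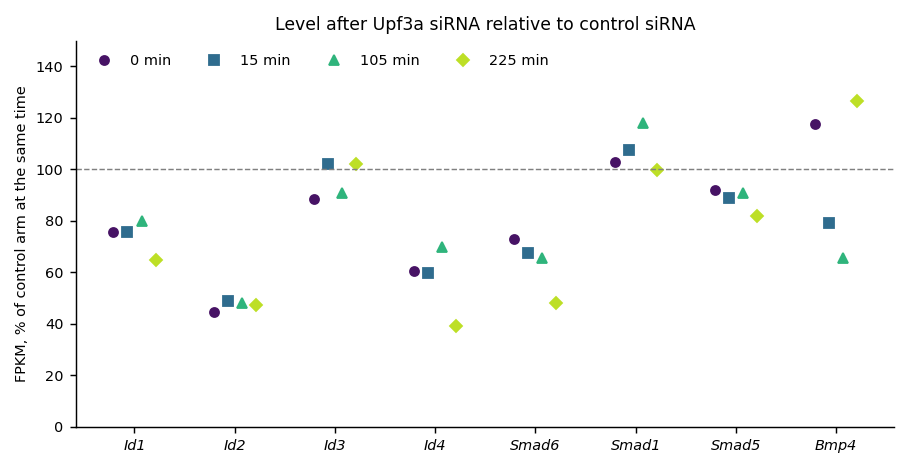
FPKM after Upf3a siRNA as a percentage of the control arm at the same time, 1 symbol per time for each of the 8 genes, with the dashed line at 100%. All 4 symbols of Id2 lie between 44.4% and 49.0%, those of Id1, Id4, Smad6 and Smad5 lie below 100%, and those of Id3, Smad1 and Bmp4 lie on both sides.

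Each of the 8 mRNAs fell after transcription was blocked, and at 225 min Id2 and Smad1 had kept the smallest share of their 0 min level and Smad5 the largest. FPKM has no outside standard, so each fall is relative to the bulk of mRNA, whose median gene stood at 102% of its 0 min value at 225 min in the control arm and 105% in the knockdown arm.

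Id2 kept 37.9% of its 0 min level at 105 min and 13.1% at 225 min in the control arm, and 41.05% and 13.9% in the knockdown arm. It was also the one gene of the 8 whose limits at 105 and 225 min were apart, in both arms, so its loss went on through the last interval. Its slope over both arms was -0.70 log2 units per hour (SE 0.024, adjusted p = 3.9e-07), and 0.428% of genes tested fell more steeply. The relative half-life from the 0 and 225 min values was 1.28 h in the control and 1.32 h in the knockdown arm.

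Id1 took another course. It was at 27.2% of its 0 min level at 105 min and at 31.8% at 225 min in the control arm, and at 28.7% and 27.3% in the knockdown arm, so that nearly all of the fall lay between 15 and 105 min. The slope of -0.55 log2 units per hour (SE 0.12, adjusted p = 0.0028) had the largest error of the 8, and without the 225 min pair it was -1.15. Leaving out that pair also gave steeper slopes for Id3 (-0.76), Smad6 (-0.71) and Smad1 (-1.01), each again called falling. Id3 kept 41.3% and 26.7% in the control arm and 42.4% and 30.8% in the knockdown arm, with a slope of -0.51 (adjusted p = 3.7e-05). Id4 kept 45.5% and 31.9% in the control arm and 52.4% and 20.7% in the knockdown arm, with a slope of -0.37 (adjusted p = 2e-05).

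Smad6 kept 34.9% at 105 min and 27.5% at 225 min in the control arm, and 31.4% and 18.1% in the knockdown arm, with a slope of -0.42 log2 units per hour (adjusted p = 5.4e-04). The transducers Smad1 and Smad5, close relatives in protein sequence and role, differed in their courses. Smad1 kept 23.2% and 12.9% in the control arm and 26.6% and 12.5% in the knockdown arm (slope -0.66, adjusted p = 2.7e-05), with relative half-lives of 1.27 h and 1.25 h. Smad5 kept 71.0% and 45.25% in the control arm and 70.0% and 40.2% in the knockdown arm (slope -0.29, adjusted p = 2e-06), with relative half-lives of 3.28 h and 2.85 h. The difference between the 2 slopes was not tested. Bmp4 kept 61.0% and 25.0% in the control arm and 34.05% and 27.0% in the knockdown arm, with a slope of -0.29 (adjusted p = 1.4e-04).

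**Figure D3:**
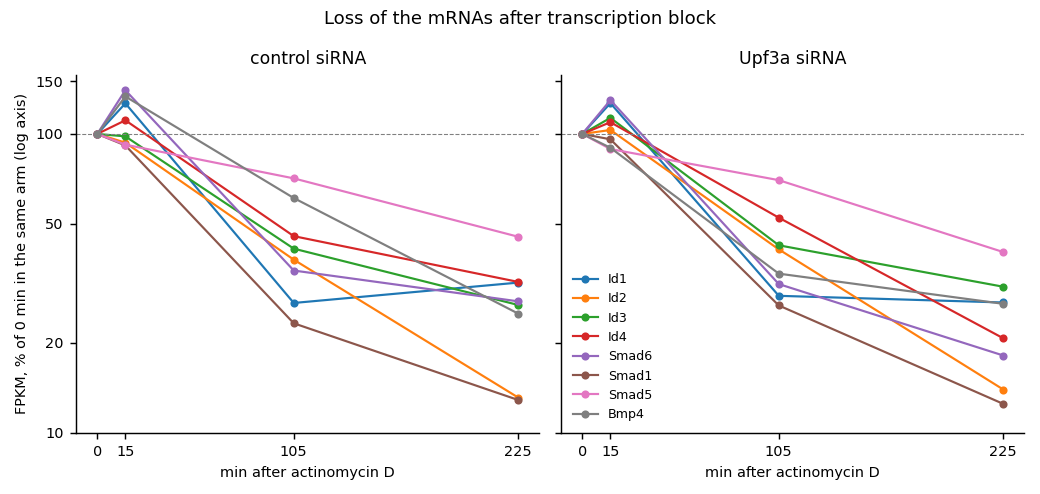
FPKM as a percentage of the 0 min value of the same arm, on a log axis, against minutes after actinomycin D, control siRNA on the left and Upf3a siRNA on the right, 1 line per gene. Smad5 is the uppermost line at 105 and 225 min in both panels, and Smad1 and Id2 end lowest, between 12.5% and 13.9%.

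All 8 slopes were called falling, as were 38.6% of genes tested, and the median slope of the 8 was -0.46 log2 units per hour against 0.01 over all genes. The authors' limits at 0 and 105 min were apart in both arms for 5 of the 8 (Id1, Id2, Id3, Smad6 and Smad1), and for 6.85% of genes tested. Those at 0 and 225 min were apart for each of the 8 in both arms. With values scaled to ribosomal protein genes the median slope of all genes moved to -0.23, with 52 genes rising and 10683 falling in place of 4891 and 4423. The 8 slopes then ran from -0.94 to -0.42 with a median of -0.68, and each still lay below the median of all genes. The slopes of the less abundant genes also rest on the pseudocount: at 5 they were -0.16 for Id4, -0.18 for Smad6, -0.38 for Smad1 and -0.10 for Bmp4, and at 0.1 they were -0.63 for Smad6 and -0.51 for Bmp4, each called falling.

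At 15 min Id1, Id4 and Smad6 were above their 0 min level in both arms, as were 21.2% of genes tested. Id1 was at 127% of its 0 min level in both arms, Smad6 at 140% in the control and 130% in the knockdown arm, and Id4 at 111% and 109.5%. Bmp4 was at 133.5% in the control arm and stood at 89.9% in the knockdown arm, while Smad1 (91.5% and 95.9%) and Smad5 (92.1% and 89.0%) were below 100% in both. The limits at 0 and 15 min overlapped for each gene in each arm, so none of these early differences exceeds the error that the table gives.

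**Figure D4:**
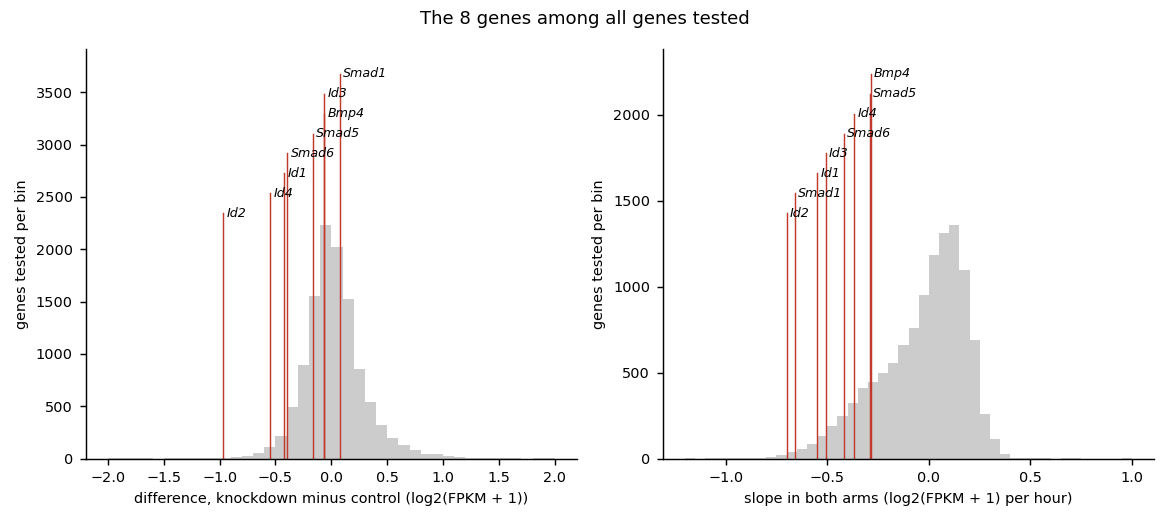
Histograms of all genes tested, in grey, for the difference between the arms (left, log2(FPKM + 1) units) and the slope over both arms (right, log2 units per hour), with red lines at the 8 genes drawn to different heights only to separate the names. Id2 stands in the lower tail of both, at -0.97 and -0.70, and the 8 slopes all lie between -0.70 and -0.28.

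The loss after transcription block was not told apart between the arms for any of the 8 genes. A decay rate difference below 0 means faster loss in the knockdown. It was -0.05 log2 units per hour for Id1, 0.07 for Id2, 0.03 for Id3, -0.01 for Id4, Smad6 and Smad1, -0.03 for Smad5 and 0.03 for Bmp4. With SEs of 0.028 to 0.058 and adjusted p from 0.75 to 0.95, limma called 0 of the 8, and 0 had an unadjusted p under 0.05. With trend and robust settings the counts were again 0 and 0. Under each other alternative limma called 0 as well, while 1 gene had an unadjusted p under 0.05 with a pseudocount of 0.1 or 5, without a filter, with quantile normalization and without the 15 min pair. The sizes depend on the settings: that of Id2 was 0.13 with a pseudocount of 5 and with quantile normalization, and with a pseudocount of 0.1 those of Smad6 and Id4 were -0.12 (adjusted p = 0.67 and 0.77). Over all genes tested 0.00873% were called, and 762 genes had an unadjusted p under 0.05. With 4 times and no separate replicate, differences well above these errors can also go uncalled. Bambi, a BMP feedback gene described below, differed by 0.20 (SE 0.035, limma adjusted p = 0.55) and was not called. The test therefore does not show that the rates are alike. For Id2 the share of control was 44.4% before actinomycin D (0 min) and 47.3% at 225 min, and for Smad6 it was 73.0% and 48.1%.

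Features that nonsense-mediated decay is known to read were looked up in the main GENCODE vM21 transcript of each gene. A splice junction more than 50 bases after the stop codon, the classic trigger, was in none of the 8 and in 0.379% of tested genes. A junction after the stop at any distance was present in Id2 (7 bases after), Id4 (18) and Id3 (23), and in 4.01% of tested genes. The other 5 genes have their last junction before the stop. Upstream ATGs in the 5′ UTR numbered 10 in Smad6, whose 5′ UTR has 1035 bases, 5 in Bmp4, 3 in Smad5, 2 in Smad1 and 1 in Id3, and 0 in Id1, Id2 and Id4. At least 1 was present in 49.2% of tested genes, at least 5 in 6.07% and at least 10 in 1.22%. 3′ UTR lengths ran from 339 bases in Bmp4 to 3093 in Id4 and 4899 in Smad5, against a median of 1020. Of the 5 genes called lower, 2 (Id2 and Id4) have a junction after the stop, as does Id3 among the 3 not called. Upstream ATGs are present in 2 of the 5 called lower (Smad6 and Smad5) and in each of the 3 not called.

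Genes with the course most like each member were sought among 7523 genes whose mean FPKM was at least 5, leaving out clone names, pseudogenes, small RNAs and predicted genes, by the root mean square difference of centred log2(FPKM + 1) over the 8 conditions. For Id2 the nearest were Arhgef3 (0.159), Dnajb1 (0.276) and Sgms1 (0.305), and for Id1 Tiparp (0.193), Zfp292 (0.202) and Mepce (0.231). For Id3 they were Etaa1 (0.0676), Pramef8 (0.0782) and Haus3 (0.0875), for Smad1 Casp8ap2 (0.0861), Adnp (0.0879) and Topors (0.0939), and for Smad5 Appbp2 (0.0277), Usp6nl (0.0398) and Bag4 (0.0492). Id1 and Id2 were each nearer to these than to one another (0.578), and Id1 was nearer to Id3 (0.361) than to Id2. These distances describe 8 values per gene, and genes with a small total change are close to many others.

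Around the 8 genes, the rest of the BMP pathway was called in each direction at shares close to those of all genes. Of 90 other pathway genes in the lists, 50 were tested, of which 13 were called higher (26%, against 26.1% of all genes tested), 14 lower (28%, against 22.3%) and 23 neither, and their median difference was -0.03. Their slopes were called falling for 36 (72%, against 38.6% of all genes tested) and rising for 7, and the median slope was -0.27 log2 units per hour.

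Among 9 ligand genes, 3 were tested, of which 33.3% were called higher and 0% lower, against 26.1% and 22.3% of all genes tested. Gdf3, a ligand of the family made by pluripotent cells, was higher (0.19, adjusted p = 0.021), and Bmp7 (-0.07) and Bmp4 were not called. Of 11 receptors and co-receptors 10 were tested, with a median of -0.15. Of these 5 were lower (50%, against 22.3% of all genes tested) and 2 higher (20%, against 26.1%). The co-receptor gene Rgmb (-0.31, adjusted p = 0.0048), the activin type II receptor gene Acvr2b (-0.20, adjusted p = 0.0053) and the BMP type I receptor gene Bmpr1a (-0.19, adjusted p = 0.010) were lower, as were the receptor genes Acvr2a (-0.17) and Bmpr1b (-0.16). Neo1, which encodes the partner of the Rgm proteins, was higher (0.22, adjusted p = 0.0037), as was the co-receptor gene Eng (0.16). With ribosomal protein scaling 1 receptor gene was called lower and the median was -0.08, and 3 were lower when the 15 min or the 105 min pair was left out. Gdf3 was not called without the 15 min or the 225 min pair, with quantile normalization or without a filter, and the count of higher receptor genes was 1 without any one time pair.

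Of 19 extracellular modulators 11 were tested, 5 higher (45.5%, against 26.1% of all genes tested) and 3 lower (27.3%, against 22.3%). Fst, which encodes the activin and BMP antagonist follistatin, was at 18.8 ± 11.7 FPKM in the control and 31.8 ± 21.55 FPKM in the knockdown arm (SD, n = 4 times), a difference of 0.66 (adjusted p = 2e-04). The secreted antagonist genes Nbl1 (0.44, adjusted p = 0.0011), Cer1 (0.34, adjusted p = 0.0061) and Chrdl1 (0.19, adjusted p = 0.0074) were higher too, as was the protease gene Bmp1 (0.21). The 3 lower genes were Bambi (-0.43), Dand5 (-0.26) and Crim1 (-0.16). Bambi encodes a pseudoreceptor that, like Smad6, is a BMP-induced feedback inhibitor, and it was at 56.8%, 53.1%, 71.8% and 98.0% of control at 0, 15, 105 and 225 min. The list's median of 0.02 turned to -0.01 with median-of-ratios scaling and to -0.02 with quantile normalization, with 5 genes higher in each. The count of lower genes was 1 with ribosomal protein scaling, where the median was 0.10, and when the 0 min or the 15 min pair was left out.

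Of the 16 Smad transducers and intracellular inhibitors, which include Smad1, Smad5 and Smad6, 15 were tested, with a median of -0.07. Of these 5 were lower (33.3%, against 22.3% of all genes tested), 1 higher (6.67%, against 26.1%) and 9 not called. Ski, which encodes a nuclear corepressor of Smads, was higher (0.35, adjusted p = 9.2e-04). Its relative Skil (-0.18, adjusted p = 0.023), the antiproliferative Smad cofactor gene Tob1 (-0.22, adjusted p = 0.013) and Smad2, the transducer of the activin and nodal branch (-0.14, adjusted p = 0.026), were lower. Smad9 stayed under 0.5 FPKM in every condition. The count of lower genes in this list was 1 with ribosomal protein scaling, where the median turned to 0.01, and 1 without the 15 min and 3 without the 225 min pair.

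Of 19 other BMP target genes 8 were tested, 2 lower (25%, against 22.3% of all genes tested) and 1 higher (12.5%, against 26.1%). Each of the 8 slopes was called falling, as were 38.6% of all genes tested. Hey1, a bHLH repressor gene (-0.23, adjusted p = 0.015), and Junb, an AP-1 subunit gene (-0.38, adjusted p = 0.027), were lower, Prdm1, a zinc finger repressor gene, was higher (0.12, adjusted p = 0.045), and Snai1 differed by 0.16 (adjusted p = 0.066). With ribosomal protein scaling, where the median was 0.01, and without the 15 min pair, limma called 0 genes of this list lower, with 2 and 3 genes at an unadjusted p under 0.05 in either direction, and without the 105 min or the 225 min pair it called 1. The count of higher genes was 0 without any one time pair. Of 20 E proteins and bHLH factors, the binding partners of Id proteins and their dimer mates, 7 were tested, with a median of 0.04. Of these 3 were higher (42.9%, against 26.1% of all genes tested) and 1 lower (14.3%, against 22.3%). The count of higher genes was 2 with median-of-ratios scaling, with quantile normalization, and without the 0, 105 or 225 min pair. The E protein gene Tcf12 (0.41, adjusted p = 0.0010), the bHLH genes Ascl2 (0.36, adjusted p = 4.8e-04) and Hes6 (0.21, adjusted p = 0.025) were higher and the E protein gene Tcf4 (-0.33, adjusted p = 0.0010) was lower. Tcf3, the most abundant E protein gene here at 78.05 FPKM on average, was not called (-0.04).

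The Id list differed from these in that 3 of its 4 genes were lower (75%, against 22.3% of all genes tested) and 0 higher, with a median of -0.48. The count of lower genes was also 3 under each of the scaling, pseudocount and left-out-time alternatives. No test of the lists against each other was made.

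**Figure D5:**
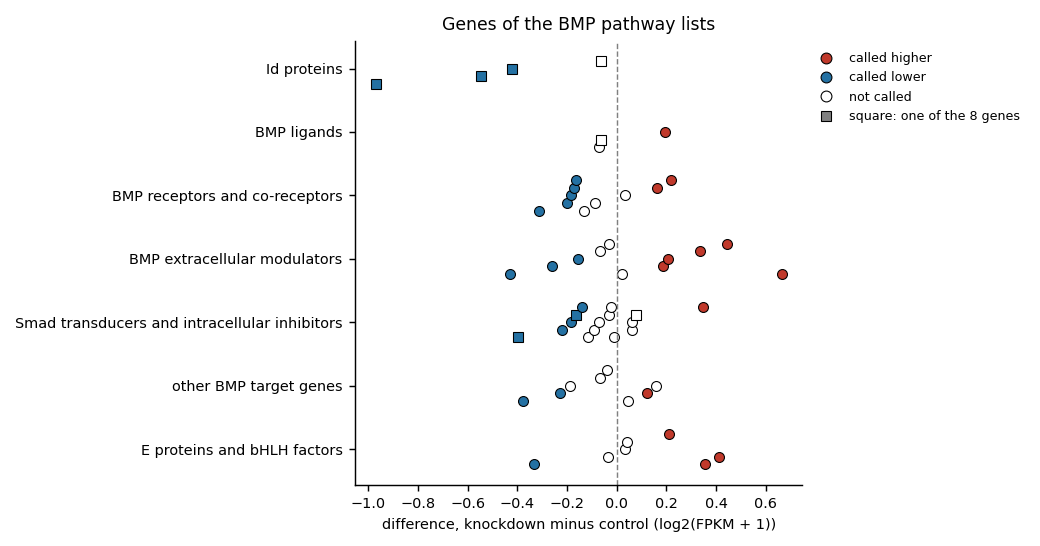
Difference between the arms, knockdown minus control in log2(FPKM + 1) units, for every tested gene of the 7 lists, 1 row per list, with blue for called lower, red for called higher, white for not called and squares for the 8 genes. The 3 blue squares of the Id row lie between -0.97 and -0.42, and the other rows hold points on both sides of 0.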

How the data were processed

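RNA from P19 cells was sequenced in 2 siRNA arms at 4 times after actinomycin D. Total RNA was extracted with Trizol and made into standard Illumina libraries, per the labels' protocols. Reads were aligned with TopHat2 and quantified with Cufflinks on mm10, per the submitters' processing notes, without versions. The authors deposited 1 FPKM value per gene and condition with a lower and an upper limit and a status, per the file headers; the labels' 2 cultures per condition were combined in a way not stated. The depth behind an FPKM is unknown, and the authors' upper limits lay 27.2% to 67.4% above the FPKM for the 8 genes. None of the 8 genes' values had a status other than OK.

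Values were taken as log2(FPKM + 1), with a pseudocount of 1, for the 11452 genes whose mean FPKM was at least 1, all 8 members among them. limma 3.58.1 in R 4.3.3 fitted the expression difference (time point as a factor plus arm), the decay rate difference (arm by hours with time as a factor) and the slope over both arms (arm plus hours), leaving 3, 2 and 5 residual degrees of freedom, with eBayes without trend. Benjamini-Hochberg adjusted p below 0.05 over all genes tested was a call. A condition has 1 value, so residuals and p-values measure disagreement between times, not between cultures, and values at successive times share an arm. The fits were checked on simulated data. Sequences and transcript features came from RefSeq (GRCm38.p6) and GENCODE vM21 (GRCm38), the same assembly as mm10. Tables were read with Python 3.11.15.

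The members, lists and tests were chosen with earlier results of these data known. Named list genes are up to 4 per list by the absolute moderated statistic of the expression difference, plus those needed to name a count of 5 or fewer; Smad7, Smad9 and Tcf3 and the markers Tagln, Col1a2 and Tubb3 were named after their values were seen. Alternatives were other pseudocounts, filters, scalings, limma's trend and robust settings, and leaving out each time.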

Additional observations from a re-analysis of the deposited data

How the results depend on the processing

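Of the 8 genes' values for the 3 comparisons under the alternatives, 261 kept their direction and side of the threshold, 2 lost the call (both Smad5, given above) and 16 changed sign, none of them called. For the difference between the arms, Id3 turned to 0.0187 with ribosomal protein scaling and Bmp4 to 0.0126 without the 105 min pair. For the decay rate difference, a pseudocount of 5 gave 0.0321 for Id4 and 0.0251 for Smad6, quantile normalization gave 0.0103 for Smad1, and ribosomal protein scaling gave -0.0101 for Id3, 0.00696 for Id4 and -0.0057 for Bmp4. Without the 15 min pair Bmp4 was at -0.0053. Without the 225 min pair Id1 was at 0.0549, Id3 at -0.0231, Id4 at 0.15, Smad6 at 0.0454, Smad1 at 0.0705, Smad5 at 0.00078 and Bmp4 at -0.18. The number of genes with a called decay rate difference, 1 as reported, was 0 without a filter, 6 with trend and robust settings, 22 when the 0 min pair was left out, 2 when that of 15 min was, 7 when that of 105 min was and 10 when that of 225 min was. The cause of these changes was not tested. Id4, Smad6 and Bmp4 were not tested at a mean FPKM of 5 or more.

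The labels give the arms no shared replicate numbers. The 2 fits of a difference between the arms pair them by time, and the slope fit does not. Bmp4, Smad6 and Id4 are limited most, with levels near or under 1 FPKM at 225 min in the knockdown arm.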
